A study of Mus musculus with 2 samples.

Results

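Carbonic anhydrases and bicarbonate transporters handle carbon dioxide, protons and bicarbonate in cells, and 10 of their genes were followed here across the cell classes of the mouse ventral parafacial region. The genes were taken by symbol from the gene table of both libraries, 10 of 28692 genes: the carbonic anhydrase genes Car2, Car4, Car8, Car10, Car11, Car12 and Car14 and the transporter genes Slc4a3, Slc4a4 and Slc4a10. At least 20 unique molecular identifiers (UMIs, each counting 1 captured RNA molecule) over all classed cells were needed for a comparison of classes, and 9 of the 10 genes passed. Car12 did not.

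Active carbonic anhydrases interconvert carbon dioxide and bicarbonate with release or uptake of a proton, inside the cell or at its surface according to the enzyme. Members of the SLC4 family carry bicarbonate across the plasma membrane, some with sodium and some in exchange for chloride, and so move acid or base. The ventral parafacial region holds the retrotrapezoid nucleus, a group of neurons, marked by Nmb, that respond to carbon dioxide and protons and drive breathing.

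The data are single-cell RNA counts from 2 libraries of C57BL6/J mice that were 10 days old, made from tissue dissected out of brainstem slices 300 µm thick. Each library pooled 8 mice, 4 male and 4 female. The mice of the untreated library (labelled WT, batch 1) received no agent, and those of the other library (batch 2) were injected with 4OH-tamoxifen at 0.2 mg per day for 3 days; the labels list no transgene or allele for either. With 1 library per condition, condition and batch cannot be told apart, there is no spread between replicates, and no p-value was computed.

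The untreated library held 18496942 UMIs in 3767 barcodes and the 4OH-tamoxifen library 34704167 UMIs in 10241 barcodes. After filtering, 3339 and 8558 cells remained, with medians of 3628 and 2411 UMIs. The libraries shared 40 deposited barcodes, 1.06% of the untreated ones, and 32 of the kept cells, 0.958%. Levels are given as CPM, the UMIs of a gene scaled to 1000000 UMIs of the class, with exact Poisson 95% intervals, and shares of cells with exact Clopper-Pearson 95% intervals. Where 0 UMIs were found, the limit given is the level or share of 3 counts. These intervals and limits cover counting error only.

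Cells were classed by a single gate marker, with 0 UMIs of the other classes' markers, and the classes are called by it. Aqp4 marks astrocytes, Pdgfra oligodendrocyte precursors and some fibroblasts, Mog oligodendrocytes, C1qa microglia, Cldn5 endothelial cells and Kcnj8 pericytes. Among neurons, Slc17a6 marks glutamatergic cells, which were divided by Nmb, Slc32a1 marks inhibitory cells and Chat cholinergic cells. The gates kept 38.5% of the filtered cells, 4584 of 11897. The untreated library gave 568 Aqp4, 141 Pdgfra, 217 Mog, 199 C1qa, 123 Cldn5 and 25 Kcnj8 cells, and the 4OH-tamoxifen library 1309, 373, 771, 337, 163 and 20. Neurons were few, with 9 and 28 Nmb, 5 and 42 other Slc17a6, 32 and 168 Slc32a1, and 10 and 44 Chat neurons in the same order of libraries.

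Markers that the gates did not use were read in 9 of the 10 classes; other Slc17a6 neurons had no list of their own, and carried the cholinergic marker Slc5a7 at 451 and 168 CPM. All 5 listed markers of the Aqp4, Pdgfra, C1qa, Cldn5 and Kcnj8 classes, and 4 of 5 for Mog cells, stood at 3 or more times the mean of the other classes in both libraries. So did the 3 listed markers of Slc32a1 neurons and the 3 of Chat neurons. In Nmb neurons 3 and 2 of 4 listed markers passed, led by Gal at 4809 CPM in the untreated and 4086 CPM in the 4OH-tamoxifen library. Fibroblast markers, 4 genes, summed to 795 and 175 CPM in Pdgfra cells, 384 and 167 CPM in Kcnj8 cells and 157 and 140 CPM in Aqp4 cells, and the C1qa cells carried 2 macrophage markers at 663 and 367 CPM. Oligodendrocyte markers were present in every class, as in Slc32a1 neurons, where 5 genes summed to 6336 and 6497 CPM against 79504 and 71403 CPM in Mog cells. Choroid plexus markers reached at most 62.2 CPM in any class, and 4 ependymal markers at most 480 CPM, all of it Rarres2 in Kcnj8 cells. Of 3 Schwann markers, 1, Pmp22, was found in Chat neurons, at 426 and 509 CPM. Erythroid markers summed to between 80.0 and 218 CPM over the classes.

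A class was called for a gene when its level was at least 3 times the mean of the other 9 classes in both libraries, with 10 CPM added to each. In Aqp4 cells 1 of 9 genes, Slc4a4, was called, where 1.75% of all 13820 genes tested were. Mog cells had 2, Car2 and Car14, beside a background of 2.26%. Pdgfra cells had 1, Car8, beside 1.07%, and Cldn5 cells 1, Car4, beside 3.13%. Of the same 9 genes 0 were called in C1qa cells (background 3.04%), Kcnj8 cells (1.98%), Nmb neurons (0.832%), other Slc17a6 neurons (0.463%), Slc32a1 neurons (0.839%) and Chat neurons (1.98%). In all 5 of the 9 genes were called in some class, beside 16.7% of all genes tested. By these settings the calls fell in glia and endothelial cells, 1 or 2 genes to a class.

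Near the threshold, Car2 in Mog cells was just inside, at 4.16 untreated and 3.15 with 4OH-tamoxifen. Slc4a3 in Chat neurons was just outside, at 6.00 and 2.97, as was Slc4a10, at 4.71 and 2.56 in Slc32a1 neurons and 4.26 and 2.69 in Nmb neurons. Both transporters met the ratio in the untreated library only. Judged on the untreated library alone, 9 gene and class pairs were called, and on the 4OH-tamoxifen library alone 6. These readings were chosen after seeing the data. The share over all genes tested is not given for a single library, so these counts have no background beside them. The 4 pairs added by the untreated library were Slc4a3 in Chat neurons, Slc4a10 in Slc32a1 and in Nmb neurons and Car11 in Slc32a1 neurons. The pair added by the 4OH-tamoxifen library was Car11 in other Slc17a6 neurons. Over the 9 genes tested, the median log2 ratio was -2.13 in Mog cells and -0.35 in Aqp4 cells, beside -0.34 and -0.23 over all genes tested.

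**Figure D1:**
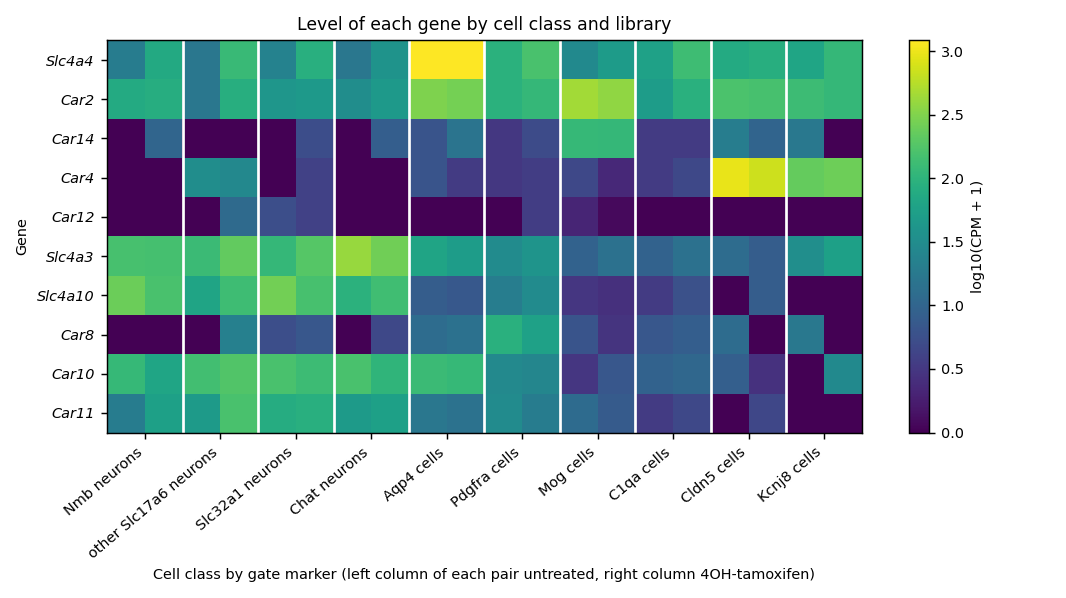
Level of each gene as log10(CPM + 1) by cell class, with the untreated library in the left and the 4OH-tamoxifen library in the right column of each pair. Slc4a4 peaked in Aqp4 cells at 1214 and 1213 CPM, Car4 in Cldn5 cells at 957 and 701 CPM, and Car12 had 3 and 7 UMIs over all classes.

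Slc4a4 encodes an electrogenic sodium bicarbonate cotransporter. Its level in Aqp4 cells was 1214 CPM (1162 to 1268) in the untreated library and 1213 CPM (1173 to 1254) in the 4OH-tamoxifen library. The other 9 classes ranged from 15.6 to 91.4 CPM without and from 36.9 to 158 CPM with 4OH-tamoxifen. Aqp4 cells thus stood above every other class in both libraries with intervals apart, by ratios of 22.9 and 11.6 to the mean of the others. They carried 91.1% and 84.8% of the Slc4a4 UMIs of all classed cells. Within the Aqp4 cells, those with at least 2 Gfap UMIs had 1233 and 1220 CPM and those with 0 had 1245 and 1211 CPM. The level was therefore alike whether or not Gfap was found.

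At least 1 Slc4a4 UMI was found in 91.5% (89.0 to 93.7) and 85.6% (83.6 to 87.5) of Aqp4 cells, at median depths of 2667.5 and 2008 UMIs. C1qa cells, which serve as the background type, had shares of 19.1% and 27.0% at median depths of 4057 and 2257 UMIs. Shares at equal depth, here and below, come from cells with at least 2000 UMIs, thinned to 2000, and leave out shallower cells: 66 of 568 and 636 of 1309 Aqp4 cells, and 9 of 199 and 114 of 337 C1qa cells. These thinned shares were 86.9% and 84.4% in Aqp4 cells and 11.6% and 21.1% in C1qa cells. Most Aqp4 cells thus held the transcript, far above the background share. Elsewhere the thinned Slc4a4 shares were 5.09% and 8.40% in Mog cells, 11.1% and 15.4% in Cldn5 cells and 17.1% and 27.1% in Pdgfra cells. Per 100 UMIs of 5 astrocyte markers, Slc4a4 had 15.8 (15.1 to 16.6) and 15.6 (15.1 to 16.2) UMIs in Aqp4 cells and 8.48 (6.18 to 11.4) and 11.2 (9.08 to 13.6) in C1qa cells. No class outside Aqp4 cells exceeded the Aqp4 value on this measure. In Slc32a1 neurons the thinned share was 3.12% (0.0791 to 16.2) and 16.2% (10.9 to 22.9), and in other Slc17a6 neurons 0 of 5 cells and 24.3% (11.8 to 41.2). These intervals and that of 0 of 5 cells overlapped those of C1qa cells in the same library.

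Slc4a3 encodes the anion exchanger AE3, which swaps chloride for bicarbonate. By gates it was highest in Chat neurons, at 410 CPM (268 to 601) in the untreated and 262 CPM (205 to 330) in the 4OH-tamoxifen library. Next came other Slc17a6 neurons (124 and 221 CPM), Nmb neurons (151 and 148 CPM) and Slc32a1 neurons (112 and 187 CPM). The interval of Chat neurons overlapped those of each of these 3 classes in at least 1 pairing of libraries, so their order is not resolved. Chat neurons did stand apart from all 6 non-neuronal classes. Clusters of cells, which gave 82 and 336 cells in the Chat class in place of 10 and 44, put Slc4a3 there at 441 CPM (375 to 515) and 291 CPM (266 to 318). This class is mixed: 73 and 231 of its cells lay in 1 cluster where 30 of 55 gated cells were Chat neurons. Within each library the cluster interval for Chat lay above those of the Nmb (136 and 205 CPM) and Slc32a1 (138 and 193 CPM) cluster classes. The other Slc17a6 cluster class, 11 and 28 cells, lay below it in the untreated library only, at 137 CPM (89.0 to 203), and was at 292 CPM (218 to 382) in the other. That class was named on 6 of 9 gated cells, and most gated other Slc17a6 neurons lay outside it.

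The share of Chat neurons with Slc4a3 was 90.0% and 77.3% at median depths of 5012.5 and 4466 UMIs, against 2.51% and 3.26% of C1qa cells at 4057 and 2257 UMIs. Thinned to 2000 UMIs, it was 44.4% and 46.5%, against 1.05% and 2.24%. In Aqp4 cells Slc4a3 was at 61.9 CPM (50.5 to 75.0) and 49.4 CPM (41.6 to 58.4), and in Kcnj8 cells at 32.0 and 55.7 CPM, from 2 UMIs each. The thinned share of Aqp4 cells, 12.4% (9.60 to 15.6) and 8.62% (6.61 to 11.0), was above that of C1qa cells. Pan-neuronal markers, 4 genes, summed to 167 and 339 CPM in Aqp4 cells and to 109 and 274 CPM in C1qa cells, where Slc4a3 was at 8.36 and 13.3 CPM. Aqp4 cells with Gfap had 81.7 CPM (60.8 to 107) and 59.2 CPM (46.3 to 74.6), and those without it 53.0 CPM (37.9 to 72.2) and 36.8 CPM (26.1 to 50.3). The Gfap cells were higher in both libraries, with overlapping intervals.

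Slc4a10 encodes a sodium-driven bicarbonate transporter that loads base into neurons. In Slc32a1 neurons it was at 264 CPM (201 to 341) in the untreated and 151 CPM (123 to 183) in the 4OH-tamoxifen library. Nmb neurons had 246 CPM (131 to 421) and 157 CPM (91.3 to 251), Chat neurons 94.6 and 136 CPM, and other Slc17a6 neurons 62.2 and 132 CPM. These 4 neuronal classes did not differ beyond their intervals taken over both libraries, while Slc32a1 neurons stood apart from all 6 non-neuronal classes. In the cluster classes Slc4a10 was at 201 and 178 CPM for Nmb, 206 and 139 CPM for Slc32a1, 91.6 and 117 CPM for Chat and 82.5 and 84.1 CPM for other Slc17a6 neurons. The Nmb and Slc32a1 values were the higher ones in both libraries there too. Slc32a1 neurons with Sst had 230 and 160 CPM and those without it 291 and 144 CPM, with no common direction.

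Slc4a10 was found in 71.9% and 41.1% of Slc32a1 neurons, at median depths of 7336.5 and 3765 UMIs, and in 66.7% and 39.3% of Nmb neurons, at 5375 and 3972.5 UMIs. C1qa cells had 1.01% and 1.19% at 4057 and 2257 UMIs. Thinned shares were 34.4% and 21.2% in Slc32a1 neurons, 33.3% and 37.5% in Nmb neurons and 1.05% and 1.35% in C1qa cells. Equal depth thus kept Slc32a1 and Nmb neurons well above the background type. With 4OH-tamoxifen the thinned share was also 37.2% (23.0 to 53.3) in Chat and 35.1% (20.2 to 52.5) in other Slc17a6 neurons. Both were above that of Slc32a1 neurons (15.2 to 28.4) in that library, with overlapping intervals. In the untreated library both classes were below Slc32a1 neurons, from 1 cell with a UMI each. The shares therefore do not put the neuronal classes in order. Outside neurons the Slc4a10 level was 19.1 and 29.4 CPM in Pdgfra cells and at most 7.21 CPM in Aqp4, Mog, C1qa and Cldn5 cells. Kcnj8 cells had 0 UMIs, which allows up to 48.0 and 83.5 CPM.

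**Figure D2:**
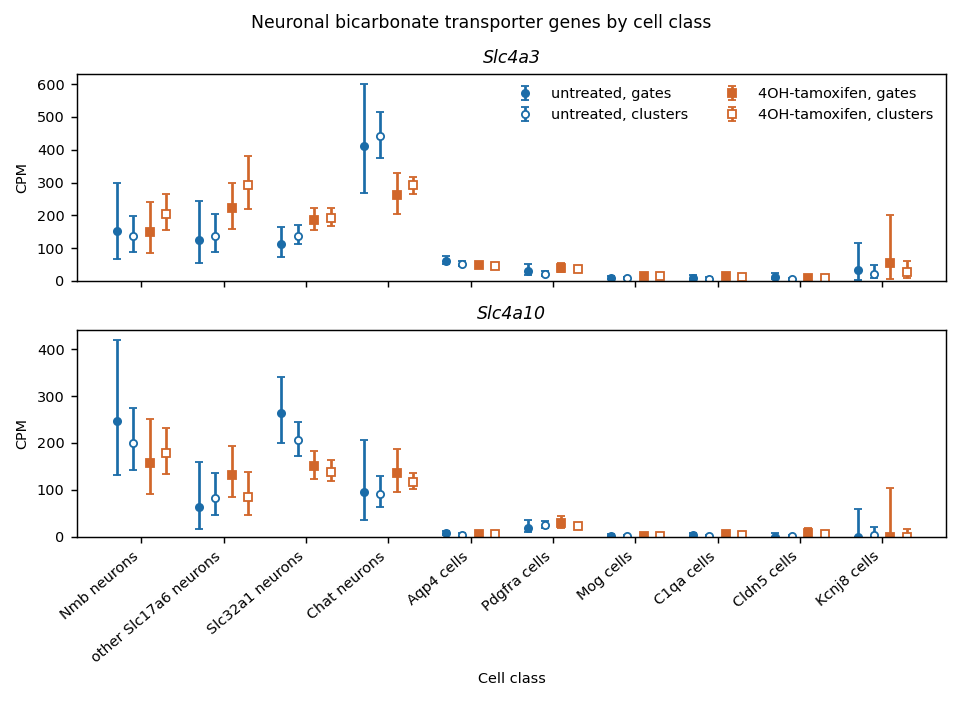
Slc4a3 and Slc4a10 in CPM by cell class, with filled points for gates, open points for clusters and bars for exact Poisson 95% intervals. Slc4a3 was highest in the Chat class by gates (410 and 262 CPM), while by clusters it was highest there in the untreated library only (441 CPM), and Slc4a10 was spread over the neuronal classes.

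Car2 encodes the cytosolic carbonic anhydrase II, a fast enzyme. Mog cells had 449 CPM (419 to 480) in the untreated and 373 CPM (355 to 390) in the 4OH-tamoxifen library. Aqp4 cells followed with 309 CPM (283 to 337) and 277 CPM (258 to 297), and Cldn5 cells with 160 CPM (128 to 198) and 154 CPM (123 to 191). This order of Mog, Aqp4 and Cldn5 cells held with intervals apart over both libraries. The remaining 7 classes ranged from 15.6 to 128 CPM in the untreated and from 44.3 to 111 CPM in the 4OH-tamoxifen library. The call in Mog cells was lost with a gate of 1 UMI for non-neuronal cells, with clusters in place of gates, with CPM averaged over single cells and with 50 CPM added.

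Car2 was found in 63.6% and 66.7% of Mog cells, at median depths of 7716 and 6221 UMIs, and in 53.9% and 45.3% of Aqp4 cells, at 2667.5 and 2008 UMIs. C1qa cells had 18.6% and 19.3% at 4057 and 2257 UMIs. Thinned to 2000 UMIs, the shares were 40.7% and 41.5% in Mog cells, 44.6% and 41.6% in Aqp4 cells and 12.1% and 13.9% in C1qa cells. At equal depth the transcript was therefore found as often in Aqp4 as in Mog cells. Relative to 100 UMIs of 5 oligodendrocyte markers, Car2 had 0.565 (0.527 to 0.604) and 0.522 (0.498 to 0.547) UMIs in Mog cells. The same measure gave 2.43 (2.22 to 2.65) and 1.80 (1.67 to 1.93) in Aqp4 cells and 1.76 and 1.55 in Cldn5 cells. C1qa cells, at 0.495 (0.357 to 0.670) and 0.577 (0.454 to 0.724), had the ratio of Mog cells. In Slc32a1 neurons the thinned Car2 share was 9.38% (1.98 to 25.0) and 8.12% (4.40 to 13.5), with intervals overlapping those of C1qa cells, 7.83 to 17.6% and 9.64 to 19.1%.

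Car14 encodes a membrane-bound carbonic anhydrase with its active site outside the cell. It was at 116 CPM (101 to 133) and 113 CPM (104 to 123) in Mog cells of the untreated and 4OH-tamoxifen libraries. Cldn5 cells had 19.1 and 8.97 CPM, Aqp4 cells 5.41 and 14.5 CPM, and C1qa cells 2.39 and 2.42 CPM. Mog cells carried 90.5% of the Car14 UMIs of classed cells in each library and stood apart from 8 of the 9 other classes, Kcnj8 cells being the exception with 1 and 0 UMIs. The share of Mog cells with Car14 was 47.5% and 45.0% (median depths 7716 and 6221 UMIs), against 1.01% and 0.593% of C1qa cells (4057 and 2257 UMIs). After thinning it was 15.3% and 18.4%, against 0 and 0.897%; 0 of 190 thinned C1qa cells allows a share of up to 1.58% with a UMI at that depth. The ratio in Mog cells fell under the threshold with 50 CPM added.

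Car4 encodes a carbonic anhydrase anchored by a lipid to the outer face of the membrane. Cldn5 cells had 957 CPM (875 to 1045) in the untreated and 701 CPM (634 to 774) in the 4OH-tamoxifen library, 24.3 and 16.9 times the mean of the other classes. Kcnj8 cells came next with 224 CPM (122 to 376) and 250 CPM (115 to 475). Both classes stood apart from every class below them in both libraries. In other Slc17a6 neurons Car4 was at 31.1 and 26.3 CPM, from 2 and 5 UMIs, and where UMIs were found in the other classes it was at 5.41 CPM or less. Nmb and Chat neurons had 0 UMIs, which allows up to 56.8 and 27.7 CPM in Nmb and 47.3 and 11.1 CPM in Chat neurons. Untreated Slc32a1 neurons also had 0, which allows up to 13.4 CPM. Cldn5 cells carried 93.5% and 92.0% of the Car4 UMIs of classed cells.

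Car4 was found in 78.9% and 70.6% of Cldn5 cells, at median depths of 3407 and 2576 UMIs, and in 32.0% and 30.0% of Kcnj8 cells, at 2316 and 1751.5 UMIs. Only 1.01% and 0.890% of C1qa cells had it, at 4057 and 2257 UMIs. Thinned, the shares were 67.6% and 64.1% in Cldn5 cells and 0.526% and 0.897% in C1qa cells. Endothelial markers, 5 genes, summed to 48.0 and 83.5 CPM in Kcnj8 cells (3 UMIs in each library), led by Flt1, with Cdh5, Ly6c1 and Slco1a4 at 0 in both libraries, and to 4623 and 4303 CPM in Cldn5 cells. Per 100 UMIs of these markers Car4 had 20.7 (18.8 to 22.8) and 16.3 (14.6 to 18.1) UMIs in Cldn5 cells and 467 (130 to 2533) and 300 (74.9 to 1723) in Kcnj8 cells. Clusters gave 102 and 112 cells in the Kcnj8 class, with Car4 at 252 CPM (196 to 319) and 209 CPM (153 to 279) and 575 (309 to 1166) and 383 (200 to 795) UMIs per 100. Slc16a1, a lactate transporter gene at 1362 and 890 CPM in Cldn5 cells, had 0 UMIs in Kcnj8 cells, which allows up to 48.0 and 83.5 CPM.

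Car12 encodes a membrane-bound active enzyme. It had 3 UMIs over the classed cells of the untreated and 7 over those of the 4OH-tamoxifen library. Of 568 and 1309 Aqp4 cells 0 had a Car12 UMI, which allows levels of up to 1.80 and 1.06 CPM in the class. The UMIs found lay in Slc32a1 neurons (1 and 2), other Slc17a6 neurons (0 and 2), Pdgfra cells (0 and 2) and Mog cells (2 and 1). No class could be given a pattern at this depth.

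Car8, Car10 and Car11 encode carbonic anhydrase-related proteins, which lack the zinc-binding residues needed for catalysis. Car8, whose protein is known to bind an inositol trisphosphate receptor, was highest in Pdgfra cells, at 89.3 CPM (64.3 to 121) in the untreated and 57.5 CPM (41.6 to 77.4) in the 4OH-tamoxifen library. Aqp4 cells had 11.4 and 13.1 CPM and C1qa cells 5.97 and 7.25 CPM. Pdgfra cells stood apart from 5 classes, Aqp4, C1qa, Cldn5 and Mog cells and Slc32a1 neurons, while the other 4 classes held too few UMIs to tell. The share with Car8 was 24.8% and 10.5% of Pdgfra cells (median depths 3104 and 1827 UMIs) and 2.51% and 1.78% of C1qa cells (4057 and 2257 UMIs). Thinned shares were 9.30% (4.90 to 15.7, 12 of 129 cells) and 10.0% (5.58 to 16.2, 14 of 140 cells), against 1.58% and 0.897%. The Pdgfra cluster class, 595 and 1692 cells, had 104 CPM (90.6 to 119) and 61.4 CPM (53.4 to 70.3), and thinned shares of 18.0% (14.9 to 21.4) and 11.0% (8.72 to 13.6). By clusters Car8 was thus higher in the untreated library with intervals apart, while by gates the intervals overlapped. Pdgfra cells with 0 Col1a2 UMIs had 96.9 and 58.4 CPM. The 6 and 3 Pdgfra cells with at least 2 Col1a2 UMIs, a fibroblast gene, had 0 Car8 UMIs, but are too few to tell their level from that of the others. With 50 CPM added the ratio in Pdgfra cells fell under the threshold.

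Across the oligodendrocyte lineage the Car8, Car14 and Car2 levels ran in different directions. Cells with at least 2 Gpr17 UMIs and neither Pdgfra nor Mog, a marker of committed precursors, numbered 286 and 1012. Mog cells were divided into 101 and 408 without Opalin, a gene of myelinating cells, and 116 and 363 with it. Car8 was at 89.3 and 57.5 CPM in Pdgfra cells, 46.1 and 29.5 CPM in Gpr17 cells, 7.15 and 1.25 CPM in Mog cells without Opalin and 4.20 and 2.50 CPM in those with it. It was highest at the precursor end in both libraries. Car14 was at 2.13 and 4.01 CPM in Pdgfra cells, 13.3 and 11.4 CPM in Gpr17 cells, 74.3 and 97.3 CPM in Mog cells without Opalin and 141 and 129 CPM in those with it, rising at each step. Car2 was at 91.4 and 111 CPM in Pdgfra cells, 40.5 and 73.9 CPM in Gpr17 cells, 101 and 181 CPM in Mog cells without Opalin and 653 and 565 CPM in those with it. Its level was lowest in Gpr17 cells, below that of C1qa cells, the background type (50.2 and 90.6 CPM). In Pdgfra cells its intervals, 66.1 to 123 and 88.3 to 137 CPM, overlapped those of C1qa cells, 36.2 to 67.8 and 71.3 to 114 CPM. The difference between Pdgfra and Gpr17 cells thus lay near the background. The step between the Mog groups was larger as a ratio for Car2 than for Car14 in both libraries. Mog cells with Klk6 had 396 CPM (347 to 450) and 339 CPM (310 to 370) of Car2, against 473 CPM (437 to 512) and 387 CPM (366 to 409) in those without it, a slightly lower level whose intervals overlapped in both libraries.

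**Figure D3:**
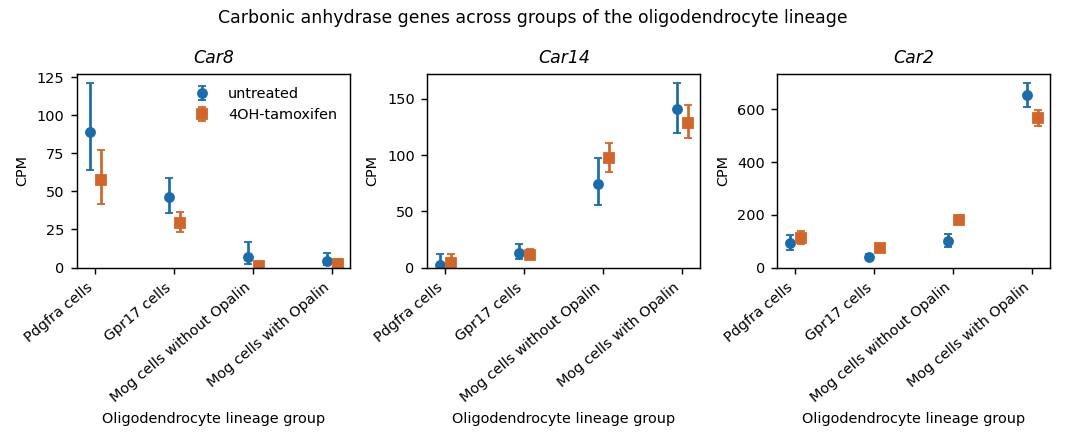
Car8, Car14 and Car2 in CPM over 4 groups of the oligodendrocyte lineage, with points for the libraries and bars for exact Poisson 95% intervals. Car8 was highest in Pdgfra cells (89.3 and 57.5 CPM), and Car14 and Car2 in Mog cells with Opalin (141 and 129, 653 and 565 CPM).

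Car10 encodes a secreted, catalytically inactive protein known to bind neurexins. Its level was 140 CPM (64.0 to 266) and 174 CPM (119 to 244) in other Slc17a6 neurons, 157 CPM (109 to 218) and 130 CPM (104 to 160) in Slc32a1 neurons and 158 CPM (75.6 to 290) and 103 CPM (68.6 to 149) in Chat neurons. Aqp4 cells were in the same range, at 126 CPM (110 to 144) and 114 CPM (102 to 127), and Nmb neurons at 114 and 64.6 CPM. These 5 classes did not differ beyond their intervals. Pdgfra cells had 27.6 and 25.4 CPM and Mog cells 2.11 and 5.83 CPM. With clusters in place of gates the mean log2 ratio of Car10 in other Slc17a6 neurons was -1.12. That cluster class was 1 cluster of 39 cells, where 6 of 9 gated cells were other Slc17a6 neurons. Most of the 5 and 42 gated cells lay outside it, so clusters cannot check the place of that class, which rests on the gates.

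Car10 was found in 29.4% and 21.4% of Aqp4 cells (median depths 2667.5 and 2008 UMIs) and in 3.52% and 2.37% of C1qa cells (4057 and 2257 UMIs). Thinned shares were 22.1% and 19.2% in Aqp4 cells, 25.0% and 25.0% in Slc32a1 neurons and 2.63% and 2.24% in C1qa cells.

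Car11, the closest relative of Car10, encodes another secreted inactive protein. Slc32a1 neurons had 80.5 CPM (47.7 to 127) and 88.5 CPM (67.6 to 114), other Slc17a6 neurons 46.7 CPM (9.63 to 136) and 158 CPM (106 to 225), Chat neurons 47.3 and 55.3 CPM and Nmb neurons 18.9 and 55.3 CPM. Aqp4 cells, at 15.6 and 13.4 CPM, lay below Slc32a1 neurons with intervals apart, unlike Car10. The share with Car11 was 37.5% and 28.0% of Slc32a1 neurons (median depths 7336.5 and 3765 UMIs) and 1.01% and 0.890% of C1qa cells (4057 and 2257 UMIs). After thinning it was 21.9% and 15.6%, against 0 (of 190 cells, as for Car14) and 1.35%. The 4 highest mean levels of Car11 were those of the neuronal classes, with 29.8 and 18.7 CPM in Pdgfra cells next.

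Pairs of the genes were looked for in the same thinned cells of the Mog, Aqp4, Cldn5 and Slc32a1 classes. Car2 and Car14 occurred together in 8.80% (5.38 to 13.4) and 10.5% (8.43 to 13.0) of Mog cells, where the product of their shares was 6.22% and 7.63%. The 4OH-tamoxifen interval lay above the product and the untreated one included it. Slc4a4 and Car2 occurred together in 41.6% (37.3 to 46.1) and 36.1% (32.5 to 39.9) of Aqp4 cells, with products of 38.8% and 35.1%. In Cldn5 cells, Car4 and Car2 occurred together in 19.4% (12.5 to 28.2) and 12.8% (7.36 to 20.3), and the product of their shares lay inside each interval. For Slc4a4 with Car2 and for Car4 with Car2 the product thus lay inside the interval in both libraries. Slc4a4 and Car10 occurred together in 20.1% (16.7 to 23.9) and 18.0% (15.1 to 21.1) of Aqp4 cells, with products of 19.2% and 16.2%. In Slc32a1 neurons Slc4a10 with Slc4a3 and Car10 with Car11 also had products inside the intervals. The intervals take no account of error in the separate shares. A product inside the interval therefore does not show that the genes of a pair occur independently.

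Between the libraries, a gene and class pair with at least 20 UMIs was called past a ratio of 2 in either direction when its exact conditional 95% interval lay wholly to 1 side of 1. Of 43 such pairs of the genes 5 were called, beside 4.88% of all 58317 pairs. By class, the share of all pairs called was 11.2% in other Slc17a6 neurons, 5.96% in C1qa cells, 3.89% in Aqp4 cells and 3.73% in Slc32a1 neurons. Of the 5 calls 0 were higher in the untreated library, and the direction of the calls over all pairs is not given here. Slc4a4 made 3 of the 5. In C1qa cells it was at 57.3 CPM untreated and 134 CPM with 4OH-tamoxifen (ratio 0.428, 0.298 to 0.605), in Slc32a1 neurons at 22.4 and 88.5 CPM (0.253, 0.0792 to 0.623), and in other Slc17a6 neurons at 15.6 and 121 CPM (0.129, 0.00312 to 0.792, from 1 and 23 UMIs). The other Slc17a6 class held 5 untreated cells at a median depth of 14396 UMIs and 42 at 4083.5 UMIs with 4OH-tamoxifen. The calls of Slc4a4 and Car11 in it thus rest on few untreated cells of unlike depth. By less than the ratio of 2, Slc4a4 was also lower in the untreated library in Pdgfra cells (0.580, 0.399 to 0.828) and Mog cells (0.583, 0.426 to 0.787). In Aqp4 cells the ratio was 1.00 (0.947 to 1.06). Over the alternatives the Slc4a4 ratio ran from 0.386 to 0.546 in C1qa cells, from 0.172 to 0.830 in Slc32a1 neurons and from 0 to 0.641 in other Slc17a6 neurons. By clusters, where the other Slc17a6 class held few of the gated cells of that name, all 5 calls were lost. There Slc4a4 in the mixed Chat class was higher in the untreated library, at 133 CPM (98.2 to 177) against 73.1 CPM (60.6 to 87.4). Astrocyte markers, with Aldoc or Slc1a2 the most abundant, also differed in C1qa cells, at 676 and 1202 CPM, and in Pdgfra cells, at 1196 and 1851 CPM. They differed less in Mog cells (365 and 487 CPM), Slc32a1 neurons (1244 and 1431 CPM) and other Slc17a6 neurons (716 and 978 CPM). Their part in the Slc4a4 differences was not tested.

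The other called pairs were Car14 in Aqp4 cells, at 5.41 and 14.5 CPM (ratio 0.373, 0.160 to 0.780), and Car11 in other Slc17a6 neurons, at 46.7 and 158 CPM (0.296, 0.0578 to 0.951, from 3 and 30 UMIs). Oligodendrocyte markers in Aqp4 cells, led by Mbp, were at 12739 and 15426 CPM, and their part in the Car14 difference was not tested. With at most 10% mitochondrial UMIs the Car14 ratio was 0.863. After thinning 1 of the 5 calls was left, Car14 in Aqp4 cells.

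Other differences were smaller than the ratio of 2 but had intervals that excluded 1. Car4 in Cldn5 cells was higher in the untreated library by a ratio of 1.36 (1.19 to 1.56), Slc4a10 in Slc32a1 neurons by 1.75 (1.25 to 2.44) and Car2 in Mog cells by 1.20 (1.11 to 1.31). Within Mog cells the direction of Car2 was not uniform. It was higher in the untreated library in those with Opalin and lower in those without it. Slc4a3 in Slc32a1 neurons was lower, with a ratio of 0.597 (0.372 to 0.922), as was Car2 in C1qa cells, at 0.554 (0.370 to 0.818). Car14 in Mog cells, at 1.03 (0.874 to 1.20), did not differ beyond counting error. These intervals do not hold the variation between mice or batches.

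Further genes of acid and base handling, 33 carbonic anhydrase, SLC4, SLC26, SLC9 and SLC16 genes listed beside the 10, were read in the same way, and 20 had enough UMIs to be tested. In Cldn5 cells 2 of these were called, Slc16a1 at ratios of 23.1 and 18.2 and Car5a, a mitochondrial carbonic anhydrase gene, at 5.92 and 4.93 (49.6 and 39.5 CPM), beside 3.13% of all genes tested. Aqp4 cells had 1, Car5b, the other mitochondrial carbonic anhydrase gene, at 3.72 and 3.49 (30.0 and 32.1 CPM), beside 1.75%. Chat neurons had 1, Slc4a2, which encodes the anion exchanger AE2, at 7.96 and 3.01 (315 and 129 CPM), beside 1.98%. Of the 20 genes 0 were called in each of 6 classes: Nmb and Slc32a1 neurons (background 0.832% and 0.839%) and Pdgfra, Mog, C1qa and Kcnj8 cells (1.07%, 2.26%, 3.04% and 1.98%). By gates Chat neurons thus led for both Slc4a2 and Slc4a3, although Slc4a3 missed the threshold. Of the 50 Car5a UMIs in classed cells nearly all lay in Cldn5 cells, so the class of its call also took it past the minimum of 20. The median log2 ratio of the 20 genes was between -0.52 in Kcnj8 cells and 0.06 in Slc32a1 neurons, beside -0.45 and -0.08 over all genes tested.

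Genes with the most similar pattern were sought among 8779 genes by Pearson's r of log2(CPM + 10) over 20 values, 10 classes in 2 libraries; the values of a library share its depth and preparation. For Slc4a4 these were Mt2 (0.924) and Elovl2 (0.919), and for Car4 Acvrl1 and Esam (both 0.962). For Car14 they were Adamts4 (0.934) and B3gnt9 (0.923), for Car2 Pla2g16 (0.896) and Hist1h2bc (0.892), and for Car8 Sapcd2 (0.892) and Rlbp1 (0.860). Slc4a3 was nearest to Sdha (0.955) and Slc4a10 to Slc2a3 (0.979) and Tmx4 (0.977). Car10 was nearest to Arhgef4 (0.938) and Sybu (0.933), and Car11 to Fsd1 (0.967) and Asphd2 (0.940). Car12, with 10 UMIs, is left out.

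In the GRCm38 genome with GENCODE M21 genes, Car2 (ENSMUSG00000027562, 14886273 to 14900770) and Car14 (ENSMUSG00000038526, 95897768 to 95904691) both lie on chromosome 3, far from each other. Car4 (ENSMUSG00000000805, 84957786 to 84966044) and Car10 (ENSMUSG00000056158, 93098028 to 93601749) both lie on chromosome 11. Slc4a4 (ENSMUSG00000060961) lies on chromosome 5, Slc4a3 (ENSMUSG00000006576) on chromosome 1, Slc4a10 (ENSMUSG00000026904) on chromosome 2, Car8 (ENSMUSG00000041261) on chromosome 4, Car11 (ENSMUSG00000003273) on chromosome 7 and Car12 (ENSMUSG00000032373) on chromosome 9. Car2 and Car14 thus share a chromosome and a leading class.

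The 2010 and 5303 kept cells that met no gate, 60.2% and 62.0%, were not used in the class values. In them Car2 was at 203 and 178 CPM, Slc4a4 at 167 and 201 CPM and Car4 at 121 and 58.8 CPM. Each gene but Car12, which had 4 and 5 UMIs there, therefore has many UMIs in cells whose class is not known from the gates.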

How the data were processed

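The authors sequenced 10x version 2 libraries and deposited UMI counts per gene and barcode (Cell Ranger 2.2.0, bcl2fastq 2.18.0.12, reference 2.1.0). The unit of the deposited values is counts, before removal of doublets. Doublets were removed by Scrublet (scanpy 1.11.5) at automatic thresholds of 0.512 (6 barcodes, untreated) and 0.179 (544, 4OH-tamoxifen), then barcodes with under 800 genes, over 50 hemoglobin UMIs or over 20% mitochondrial UMIs.

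Non-neuronal classes needed at least 2 UMIs of their marker. Neurons needed 1 UMI of theirs and 2 of the 4 genes Snap25, Syp, Tubb3 and Elavl2. UMIs were summed per class and library. Classes count as apart where both libraries of the higher exceed both of the lower with no overlap of intervals. The alternatives changed doublet removal, filters, gates, depth, averaging and added CPM, or used Leiden clusters (leidenalg 0.10.2, 25 components, resolution 0.7), each given the class of most of its gated cells. By this rule 1 cluster of 1053 cells was counted as Aqp4 on 63 of 99 gated cells, although its Slc4a4 level was 54.9 and 148 CPM. The other Slc17a6 class by clusters was 1 cluster of 39 cells, named on 6 of 9 gated cells. Named genes are the 10 members in every class, listed pathway genes that lead a class, the 2 most similar genes with at least 200 UMIs per member (not printed for Car12), and markers. Members and lists were chosen with earlier results of these data known. Python 3.11.15, numpy 2.4.6, scipy 1.17.1, pandas 2.3.3 and scikit-learn 1.9.0 were used. The counting was tested on simulated data. Protein sequences were not used here. Of the further genes and of the genes with a similar pattern, 1 each is not reported here.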

Additional observations from a re-analysis of the deposited data

Results flagged for a closer look

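Barcodes over the limit of 50 hemoglobin UMIs, 114 untreated and 173 with 4OH-tamoxifen, were left out of all comparisons, and Car4 was found in them at 390 CPM (341 to 444) and 329 CPM (291 to 369). Kept cells had 111 and 51.2 CPM. Erythroid markers summed to 457442 and 317810 CPM in the barcodes over the limit and to 170 and 172 CPM in kept cells. By construction this lowers the CPM of every other gene in the barcodes over the limit. Endothelial markers, 5 of 5 detected, summed to 1712 and 2024 CPM in these barcodes and to 502 and 275 CPM in kept cells. Pericyte markers, also 5 of 5 detected, summed to 702 and 1404 CPM against 576 and 286 CPM. The part of either in the Car4 level was not tested. The ratio of Car2 between the libraries, untreated over 4OH-tamoxifen, was 1.20 in Mog cells and 0.554 in C1qa cells, opposite directions with both intervals off 1. Mog cells without Opalin had the direction of C1qa cells, and only those with Opalin the other one. The difference between Mog and C1qa cells was not tested. Oligodendrocyte markers moved the same ways, at 79504 and 71403 CPM in Mog cells and 10125 and 15696 CPM in C1qa cells, and their part in it was not tested.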

How the results depend on the processing

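No paired analysis was possible because each condition has 1 library. With 50 CPM added 2 of the 5 class calls were made, Car4 in Cldn5 cells and Slc4a4 in Aqp4 cells. The 3 not made were Car2 and Car14 in Mog cells and Car8 in Pdgfra cells; more CPM added to both sides brings every ratio above 1 nearer to 1 by construction. The untreated library alone gave 9 calls, where 1 ratio and not 2 had to pass. The remaining alternatives gave 4 to 7 calls, with 6 for the 4OH-tamoxifen library alone, where also 1 ratio had to pass. The calls gained under any of them were in neurons. They were Slc4a3 in Chat neurons (at least 1200 genes, thinning, 1 CPM added), Car10 in other Slc17a6 neurons (at most 10% mitochondrial UMIs), Car11 in other Slc17a6 neurons (4OH-tamoxifen library alone) and Slc4a10 in Nmb neurons (Leiden clusters). Clusters with 9 in 10 gated cells of 1 class gave that last one too, with Slc4a10 and Car11 in Slc32a1 neurons. That rule leaves out the Chat, Kcnj8 and other Slc17a6 classes, so its ratios are against 6 other classes and not 9. The calls of Car4 and Slc4a4 were made under every alternative run. Of 176 leading ratios recomputed, 160 stayed within the counting interval and 16 moved. Of the ratios called in the main analysis 0 changed sign. Ratios not called did so in other Slc17a6 neurons: the mean log2 ratio went from 1.25 to -1.12 by Leiden clusters for Car10, and from 0.43 to -0.12 by clusters and -0.09 in the untreated library alone for Car12. The cluster class of this name held few of the gated cells. The mean log2 ratio ranged from 3.42 to 5.71 for Car4 (the maximum under that rule), 3.20 to 4.52 for Slc4a4, 1.57 to 4.20 for Car14, 1.13 to 3.38 for Car8 and 1.56 to 2.06 for Car2.

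Of the 5 library calls 3 were left with at least 1200 genes per cell, 4 without the pan-neuronal requirement, 1 after thinning to 2000 UMIs and 3 with at least 50 UMIs per pair. With at most 10% mitochondrial UMIs 1 was left and Slc4a4 in Pdgfra cells was new. Leiden clusters left 0 and gave 2 new ones, Slc4a4 in Nmb neurons and Slc4a3 in other Slc17a6 neurons; Slc4a4 in C1qa cells fell just short there, at 82.7 CPM (69.8 to 97.3) and 151 CPM (133 to 171), a ratio of 0.546. Clusters that had 9 in 10 gated cells of 1 class (chosen after seeing the data) left 1 and added Slc4a4 in Nmb neurons and Car8 in Pdgfra cells. Without doublet removal all 5 were kept and Car10 in Mog cells was added, and with the gate at 1 UMI Car8 in Mog cells. Up to 1 UMI of other gate markers lost 2 and added 4: Car10 and Slc4a10 in Nmb neurons and Car8 in Pdgfra and in Mog cells. Thinning and the minimum of 50 UMIs leave 25 and 27 pairs to test in place of 43; the cause of the other changes was not tested. Of 68 library ratios recomputed 64 stayed, 4 moved and 0 reversed. The Slc4a4 ratio was 0.575 by clusters and 0.830 with at most 10% mitochondrial UMIs in Slc32a1 neurons, and 0.327 and 0.641 in other Slc17a6 neurons. Ratios ran from 0.244 to 0.863 for Car14 in Aqp4 cells and from 0 to 0.715 for Car11 in other Slc17a6 neurons.

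Counting cells with at least 2 UMIs lowers every share by construction: Car2 in Mog cells to 50.7% and 48.5%, Car4 in Cldn5 cells to 61.8% and 50.9%, Car8 in Pdgfra cells to 4.96% and 1.07%, Car14 in Mog cells to 27.6% and 16.7%, and Slc4a4 in Aqp4 cells to 78.3% and 65.0%. Neuronal classes of 5 to 32 untreated cells limit what could be resolved there, and the gates leave out 60.2% and 62.0% of kept cells.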
